A study of Rattus norvegicus with 3 samples.

Results

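Collagen genes and the genes of collagen processing were followed in rat soleus, the slow postural muscle of the hind limb, after unloading. The set comprised every gene on the array whose annotated symbol is that of a collagen chain, 41 genes, together with 9 genes of collagen modification and assembly: P4ha1, P4ha2, P4hb, Plod1, Plod2, Plod3, Serpinh1, Pcolce and Loxl1. These 50 genes are among 14217 named genes on the array. The rats were Sprague-Dawley, aged 8 weeks, in 3 groups: a control group kept normally, rats whose hind limbs were unloaded by tail suspension at about 30 degrees for 7 days, and rats suspended in the same way for 14 days. A mixture of 4 samples was hybridised to 1 array for each group. The control is labelled as a control of 7 days and served for both suspended groups. There was no control of 14 days, so suspension and added time cannot be told apart in the 14-day differences. The 14-day sample carries 14 days in its title and time entry but 7 days in its source description, and it was taken as the 14-day sample.

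Collagens are trimers of alpha chains wound into a triple helix. The chains are hydroxylated on proline and lysine and folded in the endoplasmic reticulum, secreted, trimmed at their ends and cross-linked outside the cell. Fibrillar collagens build the load-bearing fibres of tendon and of the sheaths around muscle fibres, type IV collagen builds the basement membrane that wraps each fibre and capillary, and other families link, space or anchor these structures. Fibroblasts make most of the fibrillar collagen of muscle.

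Signals are log2 values per probe set, and a gene with several probe sets is given by the one that is brightest on average. Values listed in threes are in the order control, 7 days, 14 days. Each value comes from 1 pooled array, so no spread between rats is known and no test was possible. The number of arrays limits the precision. A technical spread was taken from genes that have more than 1 probe set, by pairing these. An error shared by all probe sets of an array cancels within a pair and is not part of this spread. For a single probe set, the log2 difference from control had an SD of 0.49 at 7 days and 0.48 at 14 days for mean signals under 8, 0.34 and 0.35 for signals from 8 to 10, and 0.27 and 0.28 for signals of 10 and above. Between the suspended arrays it was 0.38, 0.28 and 0.20. The difference between the suspended arrays is fixed by their differences from the shared control and is no independent evidence.

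Measured genes are those that on 1 array or more reached a signal floor of 6.01, the 40th percentile over all probe sets that are not array controls, and lower values were set to the floor. Of the 50 genes 40 were measured, 34 of them at or above the floor on all 3 arrays. The other 6, namely Col7a1, Col9a2, Col10a1, Col13a1, Col26a1 and Col27a1, passed through 1 or 2 arrays, so a difference between their arrays was built into their selection. Differences against an array under the floor are bounds and are written "at least". The 10 genes under the floor on every array were Col4a4, Col4a6, Col6a5, Col9a1, Col9a3, Col17a1, Col19a1, Col20a1, Col23a1 and Col25a1. The arrays were alike in range, with 59.1% to 61.6% of probe sets at or above the floor and highest signals from 15.87 to 16.03. The tissue label was checked on 10 muscle fibre genes, slow-fibre genes such as Myh7 together with general ones such as Acta1 and Ckm. All were measured, with summed log2 signals of 18.96, 18.95 and 18.75.

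Of the 40 measured genes 11 lay below control at 7 days and above it at 14 days, as did 1351 of all 11233 measured genes. In a bulk sample, fewer cells of a type and less RNA per cell cannot be told apart. After 7 days, 10 of the 40 genes stood at least 1.5-fold below control and 3 at least 1.5-fold above it, where 9.15% and 9.04% of all measured genes did so. After 14 days the higher genes were in the majority, with 13 genes at least 1.5-fold above control and 3 below, against 11.7% and 9.25% of all measured genes. Between the suspended arrays 36 of the 40 genes were higher at 14 days than at 7 days, where 49.9% of all measured genes were. Of the 40, 15 were at least 1.5-fold higher and 1, Col9a2, was at least 1.5-fold lower, against 6.45% and 4.28% of all genes. At 2-fold, 1 gene was higher and 4 were lower at 7 days, against 2.21% and 2.39% of all genes. At 14 days 5 were higher and 0 lower, against 3.47% and 2.43%, and between the suspended arrays 7 were higher and 1 lower, against 1.42% and 0.81%. With each array centred on its median, the share of higher genes among all genes 1.5-fold apart moved from 49.7% to 60.7% for 7 days against control, and from 60.1% to 49.3% between the suspended arrays. Under that scaling the counts of collagen and processing genes were 3 higher and 8 lower at 7 days, and 15 and 1 between the suspended arrays.

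For the 11 fibrillar chains the median log2 difference from control was 0.11 at 7 days and 0.46 at 14 days. The 5 measured basement membrane chains had medians of -0.36 and -0.26, the 15 other chains -0.41 and 0.34, and the 9 processing genes -0.35 and 0.14. The median over all measured genes was 0 and 0.01. None of these class medians changed sign under median centring or quantile normalization. The largest separation at 14 days lay between the fibrillar and the basement membrane chains, a difference of medians of 0.72. The medians of the fibrillar and other chains were 0.12 apart on that day and 0.52 apart at 7 days.

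**Figure D1:**
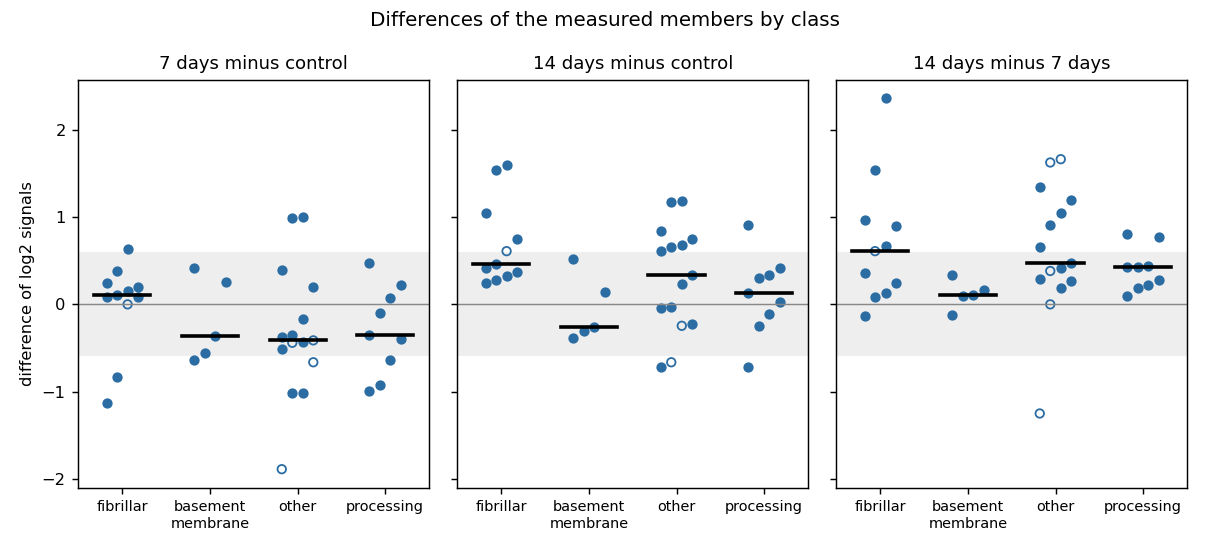
Differences of log2 signals for the measured collagen and processing genes, by class, in the 3 comparisons. Each point is a gene, open points have at least 1 of the arrays under the floor, bars are class medians, and the grey band marks differences smaller than 1.5-fold. All 11 fibrillar chains lie above 0 at 14 days, against 51.3% of all measured genes. Of 15 other chains 11 lie below 0 at 7 days, against 49.0% of all measured genes. Both counts include open points.

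The fibrillar chains are described first. Col1a1 and Col1a2, the chains of type I collagen, had log2 signals of 13.88, 14.03 and 14.92 and of 14.62, 14.70 and 15.37. Both stood close to control at 7 days and above it at 14 days, by 2.06-fold and 1.68-fold. The 14-day differences of 1.04 and 0.75 were larger than the technical SD of 0.28. A further probe set of each gene gave 1.45 and 0.83 at 14 days and 0.11 and 0.18 at 7 days. The signal of Col1a2 at 14 days lay near the highest on that array, 15.87.

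Col3a1, the chain of type III collagen, which forms thin fibres together with type I, had signals of 14.90, 15.10 and 15.18. It lay near the top of the scale on every array, and its difference at 14 days, 0.28, was about as large as the technical SD. The type V chains, which set the diameter of type I fibrils, were ordered the same way on the 3 arrays. Col5a1 had signals of 10.92, 11.03 and 11.38, and Col5a3 had 9.55, 9.79 and 9.92. Col5a2 gave 12.74, 12.82 and 13.07, although its further probe set lay below control at 7 days, by -0.16. At 14 days these 3 genes were 1.25-fold to 1.38-fold above control, so none reached 1.5-fold in its brightest probe set. The further probe set of Col5a1 gave 0.65 at 14 days, which is past 1.5-fold.

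Type XI collagen, the minor fibril collagen of cartilage and of developing tendon, had another order of arrays. Col11a1 had signals of 10.12, 8.99 and 10.53, that is 2.18-fold below control at 7 days and 1.33-fold above it at 14 days. Its further probe set of highest signal gave log2 differences of -1.13 and 0.26, and a dimmer one, under the floor at 7 days, gave -0.88 and -0.36. Col11a2 had signals of 7.27, 6.44 and 8.80. It was 1.77-fold lower at 7 days and 2.90-fold higher at 14 days, and the suspended arrays were 5.14-fold apart, the widest gap among genes of the set that were at or above the floor on both. The low array was the 7-day array for both chains.

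Of the remaining fibrillar chains, Col2a1, the main collagen of cartilage, had signals of 7.22, 7.85 and 8.82 and stood 3.04-fold above control at 14 days. This value rests on 1 probe set. The further probe sets of Col2a1 gave -0.61 and -0.29 at 7 days and 0.01 and -0.49 at 14 days, at signals near or under the floor. Col24a1 differed from control by 0.38 and 0.24 at signals of 8.08, 8.46 and 8.32. Col27a1 had signals of 1.99, 5.75 and 6.62, reached the floor at 14 days alone, and was at least 1.53-fold above control there. Over the class, 7 of 11 chains were ordered control, 7 days, 14 days from low to high, an order found in 20.8% of all measured genes. These were Col2a1 and the type I, III and V chains. The 7-day differences of the type I, III and V chains, from 0.08 to 0.24, each lay within 1 technical SD. The place of the 7-day array in that order is thus not resolved for them. Only Col11a1 and Col11a2 of this class were lowest at 7 days.

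For Col1a2 the region before the start of the gene is shown because, among fibrillar chains with a promoter entry and more than 1 probe set, it had the largest 14-day difference. It covers bases 250 to 151 before the RefSeq start on the plus strand of GRCr8, chr4:33518307-33518406, and capitals mark a CCAAT box, present on the opposite strand as ATTGG, and a TATA box, TATAAA:
Col1a2: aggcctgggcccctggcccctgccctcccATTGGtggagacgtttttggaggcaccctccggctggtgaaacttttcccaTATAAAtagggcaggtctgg
In the 250 bases before the start, searched on both strands, CCAAT is held by 34.3% of 27457 RefSeq promoters and TATAAA by 13.1%. Among the 41 genes of the set with a promoter entry, 10 and 4 held them. Col1a1, Col2a1, Col3a1, Col6a2, Col9a3, Col12a1, Col14a1, Col22a1 and Col25a1 had no entry.

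**Figure D2:**
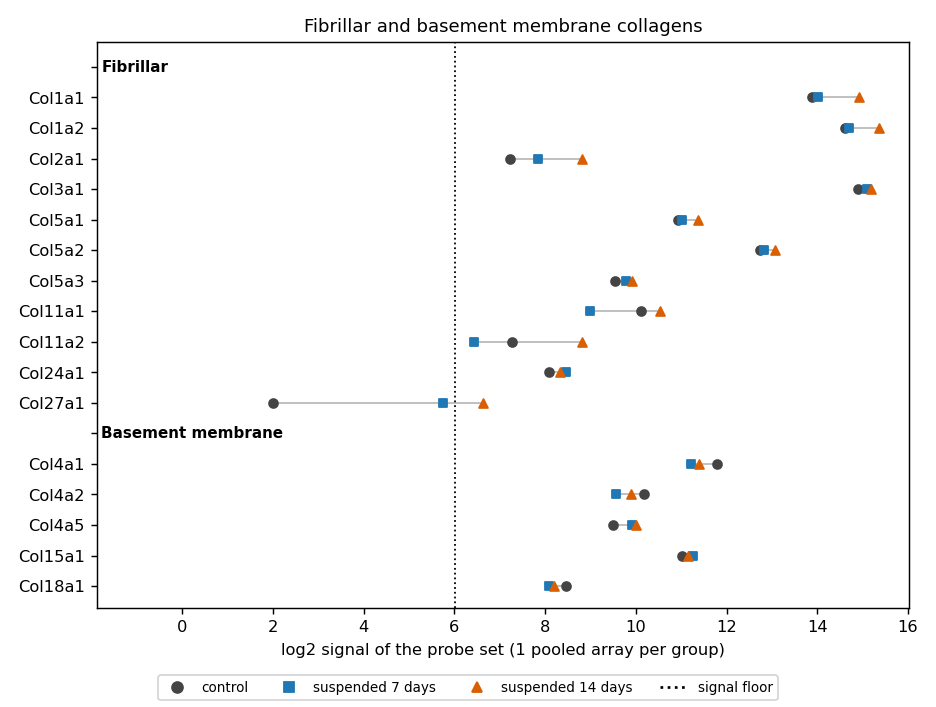
Log2 signals of the 11 fibrillar and 5 measured basement membrane chains on the 3 arrays, 1 row per gene. Circles are control, squares 7 days and triangles 14 days of suspension, and the dotted line is the floor of 6.01. Col1a1 and Col1a2 stand apart on the 14-day array alone, while the 7-day array is lowest for Col11a1, Col11a2, Col4a1, Col4a2 and Col18a1.

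In the basement membrane class, Col4a1 and Col4a2, the chains of the type IV network found in every basement membrane, stood below control on both suspended arrays. Col4a1 had signals of 11.78, 11.23 and 11.39, with log2 differences of -0.55 and -0.39. Its further probe set gave -0.52 and -0.13. Col4a2 had signals of 10.19, 9.55 and 9.88, with differences of -0.63 and -0.30. At 7 days both exceeded their technical SDs of 0.27 and 0.34, and Col4a2 passed 1.5-fold. At 14 days Col4a2 lay within 1 technical SD of control.

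Col4a5, a chain of the type IV network of specialised basement membranes that includes those of the kidney and the neuromuscular junction, lay on the other side. It had signals of 9.50, 9.91 and 10.01, 1.34-fold and 1.43-fold above control. Col4a4 and Col4a6 were under the floor on every array. Of the collagens of the outer basement membrane zone, Col15a1 had signals of 11.01, 11.26 and 11.15 and lay within 1 technical SD of control. Its further probe set gave 0.10 and 0.37. Col18a1, whose end fragment is endostatin, had signals of 8.46, 8.10 and 8.20. A further probe set of Col18a1 with a mean signal almost as high gave -0.99 and -0.96, against -0.36 and -0.26 for the brightest. The size of the Col18a1 difference therefore depends on the probe set, and its direction was the same in both.

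Col4a1 and Col4a2 lie head to head and are transcribed in opposite directions from starts 76 bases apart. The stretch between the RefSeq starts is shown because the genes share it and had similar differences from control. Col4a1 minus Col4a2 was 0.080 at 7 days and -0.088 at 14 days. The stretch lies at chr16:84885521-84885596 of GRCr8, is written along the strand of Col4a1, and has a GC box, GGGCGG, on the opposite strand, marked in capitals:
Col4a1 and Col4a2: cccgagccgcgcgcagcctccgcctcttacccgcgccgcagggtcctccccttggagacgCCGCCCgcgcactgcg
GGGCGG was present on either strand in 61.0% of the 41 promoters of the set and in 32.4% of all RefSeq promoters. Other neighbouring pairs were also measured. Col3a1 and Col5a2, 38189 bases apart, differed from control by 0.28 and 0.32 at 14 days. Col6a1 and Col6a2, 97070 bases apart, differed by 0.75 and 0.68.

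Type VI collagen forms beaded filaments that tie the basement membrane of the muscle fibre to the matrix around it, and its loss causes muscular dystrophy. All 4 measured type VI chains were at least 1.5-fold above control at 14 days, against 11.7% of all measured genes. Col6a1 had signals of 11.46, 11.30 and 12.21, Col6a2 had 9.42, 9.05 and 10.10, and Col6a3 had 12.70, 12.91 and 13.32. Their 14-day folds were 1.68, 1.60 and 1.53, and the main chains thus stood within 0.13 of each other on the log2 scale. A further, dimmer probe set of Col6a2 gave 0.69 at 7 days and 0.35 at 14 days, so its order of the suspended arrays was the reverse. Col6a6, a chain that can stand in for Col6a3, had signals of 8.13, 9.12 and 9.31. It was the only type VI chain at least 1.5-fold above control at 7 days, by 1.99-fold, and reached 2.26-fold at 14 days.

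Fibril-associated collagens sit on the surface of fibrils. Col12a1, a collagen of tendon and of the muscle sheath under load, had signals of 9.51, 8.50 and 9.85, 2.02-fold below control at 7 days and 1.26-fold above it at 14 days. A further probe set gave -0.42 and 0.39. Col14a1, its close relative, stood above control on both arrays, with signals of 11.44, 11.83 and 12.10 and a 14-day fold of 1.58. Its further probe set, with signals of 9.93, 10.17 and 10.22, gave 0.25 and 0.29 and did not reach 1.5-fold. Col12a1 and Col14a1 thus lay on opposite sides of control at 7 days, with differences of -1.01 and 0.39 in their brightest probe sets that each exceed the technical SD.

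Col22a1, a collagen of the junction between muscle fibre and tendon, had signals of 9.52, 8.50 and 8.80. It was 2.02-fold below control at 7 days and 1.64-fold below at 14 days, and it was the brightest of the 2 collagen chains at least 1.5-fold lower at 14 days. The other was Col26a1, which had signals of 6.67, 5.55 and 5.53 and was at least 1.58-fold lower on both days, near the floor. Col16a1 had signals of 9.41, 8.98 and 9.64 and did not reach 1.5-fold from control. Col9a2, a cartilage collagen, had signals of 6.26, 7.26 and 4.09, close to the floor in control and under it at 14 days. It was 2.01-fold above control at 7 days, the only gene of the set at least 2-fold higher there. With a floor at the 50th percentile that log2 difference was 0.52.

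Among the network-forming chains, Col8a1 and Col8a2, of vessel walls and other subendothelial matrix, had signals of 9.56, 9.05 and 9.52 and of 9.91, 9.55 and 10.75. Both were lowest at 7 days. At 14 days Col8a1 lay close to control, with a difference of -0.038, whereas Col8a2 was 1.79-fold above it. Col10a1, known from the growth zone of cartilage, had signals of 7.90, 5.38 and 7.68, at least 3.71-fold below control at 7 days. Col7a1, which forms anchoring fibrils, had signals of 6.45, 4.80 and 7.64, under the floor at 7 days and 2.28-fold above control at 14 days. Col13a1, a membrane collagen of the muscle fibre and its synapse, had signals of 6.42, 5.85 and 6.39. Of the 15 other chains 10 were lowest at 7 days, an order found in 27.4% of all measured genes. Col7a1, Col10a1 and Col13a1 are among the 10. They passed the floor through the control and 14-day arrays alone, so that order was built into their selection.

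The processing genes are given in the order of the pathway. Prolyl 4-hydroxylase makes the hydroxyproline that keeps the triple helix stable. Its catalytic subunit P4ha1 had signals of 10.52, 9.60 and 10.41, 1.89-fold below control at 7 days and 1.08-fold below at 14 days. P4ha2, another catalytic subunit, had 9.71, 9.37 and 9.47, and a further probe set gave -0.68 and -0.22. P4hb, the partner subunit and a general disulfide isomerase, had 12.45, 12.52 and 12.75. P4ha1 and P4ha2 were thus both low at 7 days, P4ha1 beyond 1.5-fold, while P4hb differed from control by 0.073. P4ha3, a further catalytic subunit outside the set, had 5.97, 6.06 and 6.83. It was under the floor in control and at least 1.76-fold higher at 14 days.

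Lysyl hydroxylases prepare lysines for cross-linking. Plod2, which acts on the chain ends where cross-links form, had signals of 9.91, 8.92 and 9.20, 1.98-fold below control at 7 days and 1.64-fold below at 14 days. Plod1, which acts on the helix, had 9.99, 9.89 and 10.33, and Plod3 had 9.51, 9.10 and 9.54. Plod2 alone of the 9 processing genes was at least 1.5-fold below control on both suspended arrays. Serpinh1, the collagen-specific chaperone, had signals of 12.22, 11.58 and 12.36, 1.56-fold below control at 7 days and 1.10-fold above it at 14 days. Its further probe set was under the floor on every array.

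Outside the cell, Pcolce, which speeds the removal of the end propeptide of fibrillar procollagens, stood above control on both arrays, with signals of 11.69, 12.17 and 12.60. It was 1.87-fold higher at 14 days, the largest difference upwards in the processing class. Loxl1, an oxidase of the cross-linking family that is best known for elastin, had 10.56, 10.78 and 10.97, 1.33-fold higher at 14 days. All 9 processing genes were higher at 14 days than at 7 days, by 0.10 to 0.81, where 49.9% of all measured genes were higher.

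The regions before Serpinh1 and Plod2 are shown because both genes were over 1.5-fold low at 7 days and because they are the only 2 of the 41 promoters of the set with a full heat shock element on either strand, the blocks TTC, GAA and TTC in that order with 2 bases of any kind between neighbouring blocks. That motif is held by 0.597% of all RefSeq promoters. Serpinh1 is written for bases 150 to 1 before its start on the minus strand, chr1:163062977-163063126, and Plod2 for bases 250 to 101 on the plus strand, chr8:101964068-101964217, both of GRCr8. Capitals mark the element and, in Plod2, the hypoxia response core ACGTG, present 2 times on the opposite strand as CACGT; no marked motif overlaps another:
Serpinh1: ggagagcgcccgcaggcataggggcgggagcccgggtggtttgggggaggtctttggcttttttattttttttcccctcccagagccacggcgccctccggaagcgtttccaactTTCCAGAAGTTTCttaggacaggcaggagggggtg
Plod2: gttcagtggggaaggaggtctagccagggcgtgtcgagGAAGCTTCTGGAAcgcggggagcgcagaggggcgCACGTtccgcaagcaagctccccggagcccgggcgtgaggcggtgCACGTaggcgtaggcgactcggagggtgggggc
ACGTG was found in 4 of the 41 promoters, those of Plod2, P4ha2, Col26a1 and Col4a5, and in 16.9% of all RefSeq promoters. The other form of that core, GCGTG, was found in 19 of the 41, or 46.3%, and in 27.2% of all. Plod2 holds it unmarked on the strand shown, at bases 222 to 218 and 146 to 142 before the start. A match describes the letters of this window and shows no binding.

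**Figure D3:**
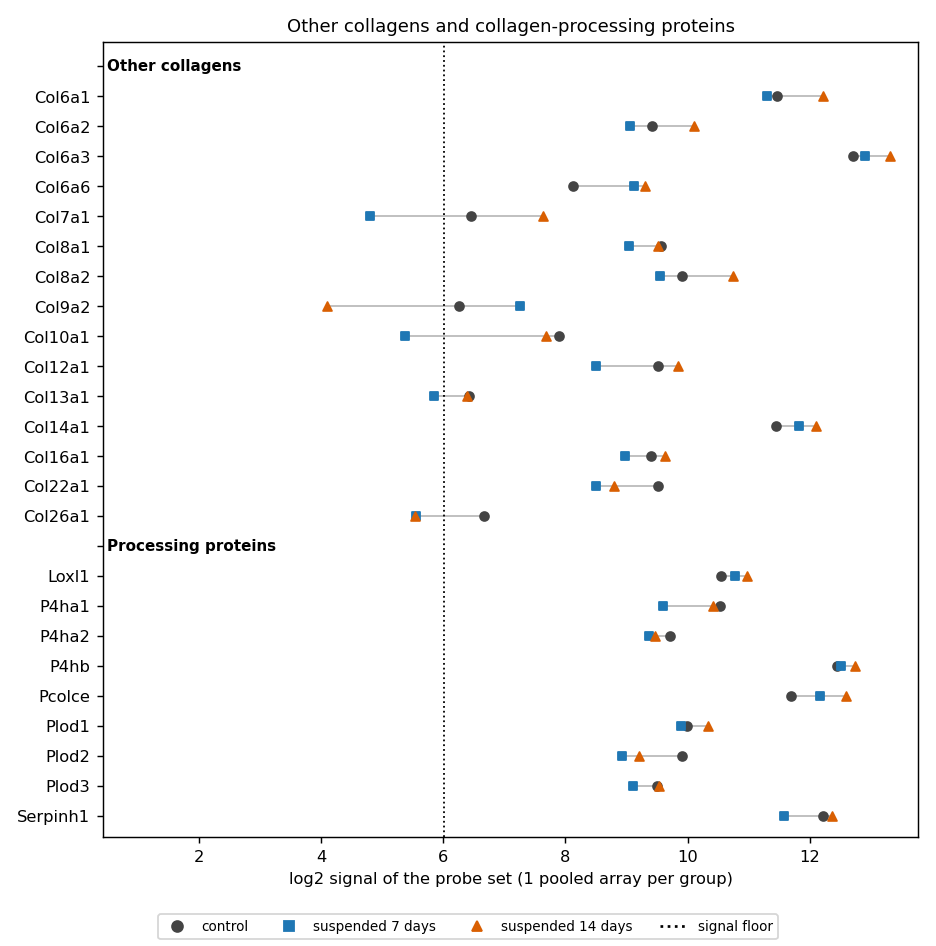
Log2 signals of the 15 other measured collagen chains and the 9 processing genes on the 3 arrays, 1 row per gene. Symbols are as in the plot of fibrillar and basement membrane chains. The 7-day array is lowest for 10 of 15 other chains and for 6 of 9 processing genes, against 27.4% of all measured genes. For Col7a1, Col10a1 and Col13a1 that order was built into their selection. Col22a1 and Plod2 are at least 1.5-fold below control on both days.

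Members with a second bright probe set give a check within the arrays. For 12 genes a further probe set was at or above the floor on all 3 arrays. At 14 days all 12 had the sign of the brightest probe set. At 7 days 10 of 12 had it, and Col5a2 and Col6a2 did not. The widest gap at 7 days was 1.06, in Col6a2, and at 14 days 0.69, in Col18a1.

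**Figure D4:**
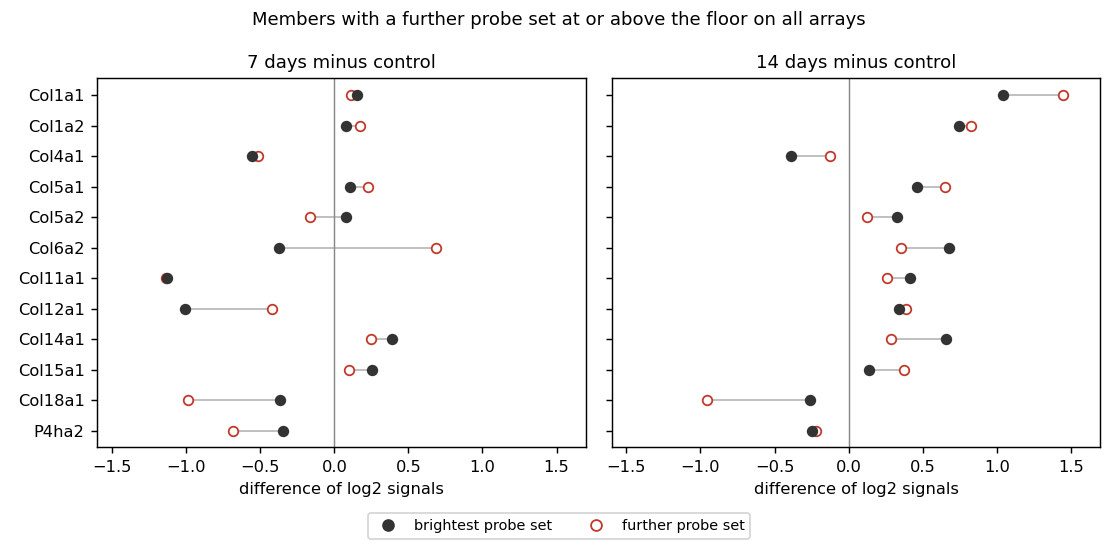
Difference of log2 signals from control at 7 days (left) and 14 days (right) for 12 genes with a further probe set at or above the floor on all arrays. Filled circles are the brightest probe set and open circles the further one. All pairs lie on the same side of 0 at 14 days, and those of Col5a2 and Col6a2 lie on opposite sides at 7 days.

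Other genes of collagen biosynthesis were read from a list of 32, of which 24 had a named probe set and were measured. At 7 days none was at least 1.5-fold above control and 2 were below, against 9.04% and 9.15% of all measured genes, and 12 lay on each side of control. The lower genes were Hspa5, the main chaperone of the endoplasmic reticulum, with signals of 13.42 in control and 12.42 at 7 days, and Loxl3, a cross-linking oxidase, 1.86-fold lower. The largest differences upwards at 7 days, both under 1.5-fold, were those of Sar1b, 1.48-fold, and Tmem38b, an ion channel of the endoplasmic reticulum, 1.39-fold. At 14 days 7 of 24 were at least 1.5-fold above control and 1 was below, against 11.7% and 9.25% of all measured genes, with a median of 0.34. Sar1b, a GTPase of the vesicles that carry procollagen out of the endoplasmic reticulum, was 2.32-fold higher, Lox, the chief cross-linking oxidase of collagen, 2.02-fold, and Kdelr3, a retrieval receptor of the same route, 1.95-fold. Hspa5 was 2.07-fold lower.

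Regulators of the transforming growth factor beta pathway, which drives collagen transcription in fibroblasts, did not lie to one side. Of 13 measured genes from a list of 15, 1 was at least 1.5-fold above control and 3 below at 7 days, against 9.04% and 9.15% of all measured genes. At 14 days 1 was above and 1 below, against 11.7% and 9.25%. Ccn2, a matrix protein induced by this pathway and by stretch, had signals of 13.46, 12.78 and 12.79, 1.60-fold and 1.59-fold lower. Ltbp3, which holds the latent growth factor in the matrix, was 1.55-fold and 1.83-fold higher. Smad7, an inhibitor that the pathway itself induces, had signals of 7.96, 7.26 and 7.48. Tgfb1 was 1.58-fold lower at 7 days, at signals near the floor, and Ltbp1 was 1.42-fold higher at 14 days.

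The marker genes of several cell types were not level over the arrays. Of 8 tendon markers 6 were measured. All 6 lay below control at 7 days, 4 by at least 1.5-fold, against 49.0% and 9.15% of all measured genes. At 14 days 5 of 6 lay above control, against 51.3% of all measured genes. The exception, Scx, had signals of 10.68, 9.53 and 9.95. The summed log2 signal of the 6 markers was 14.30, 13.49 and 14.64. That order of arrays was shared by 11 of the 40 genes, including Col11a1, Col11a2 and Col12a1, and by 1351 of 11233 measured genes. The part of tendon tissue in the collagen values was not tested. Of 6 cartilage and bone markers 4 were measured. Matn1, Ibsp and Bglap reached the floor in control alone, Acan in control and at 14 days, and Hapln1 on no array. These markers passed through the control array, so their order over the arrays was built into their selection and is not set beside the cartilage collagens Col2a1, Col9a2 and Col10a1. Their summed deposited signals of 8.76, 6.53 and 7.34 on the log2 scale include values under the floor. The part of cartilage was not tested.

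Of 11 fibroblast markers 10 were measured. All 10 lay above control at 7 days and 9 at 14 days, 5 of them by at least 1.5-fold on each day, with summed log2 signals of 15.93, 16.37 and 16.38. Of all measured genes 49.4% and 51.3% lay above control on these days, 9.04% and 11.7% by at least 1.5-fold. Between 7 and 14 days the median difference of the fibroblast markers was 0.075, with a range from -0.16 to 0.50. Tcf21 was under the floor on every array. Endothelial markers, 9 measured of 10, had summed signals of 13.12, 12.97 and 13.20 and medians of -0.15 and -0.16. Below control were 8 of 9 at 7 days and 6 of 9 at 14 days, against 49.0% and 47.3% of all measured genes, and none was 1.5-fold from control. Smooth muscle and pericyte markers, all 9 measured, had summed signals of 14.78, 14.66 and 14.68 and medians of -0.15 and -0.12. Des alone had 14.29, 14.22 and 14.11 and thus made up most of that sum. Macrophage markers, all 10 measured, had summed signals of 13.32, 13.71 and 13.76 and medians of 0.56 and 0.50. Adipocyte markers, 5 measured of 6, had sums of 14.49, 14.92 and 14.44, which mostly follow Fabp4 at 13.98, 14.22 and 13.70. Their median was 0.80 at 7 days and 0.34 at 14 days, where 3 lay above control and 2 below. Schwann cell markers, 3 measured of 6, had sums of 12.79, 13.22 and 13.74 and medians of 0.41 and 0.97. Most of these sums came from Pmp22, at 12.41, 12.83 and 13.38. Sox10 was under the floor on every array. The part of these cells in the collagen values was not tested.

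**Figure D5:**
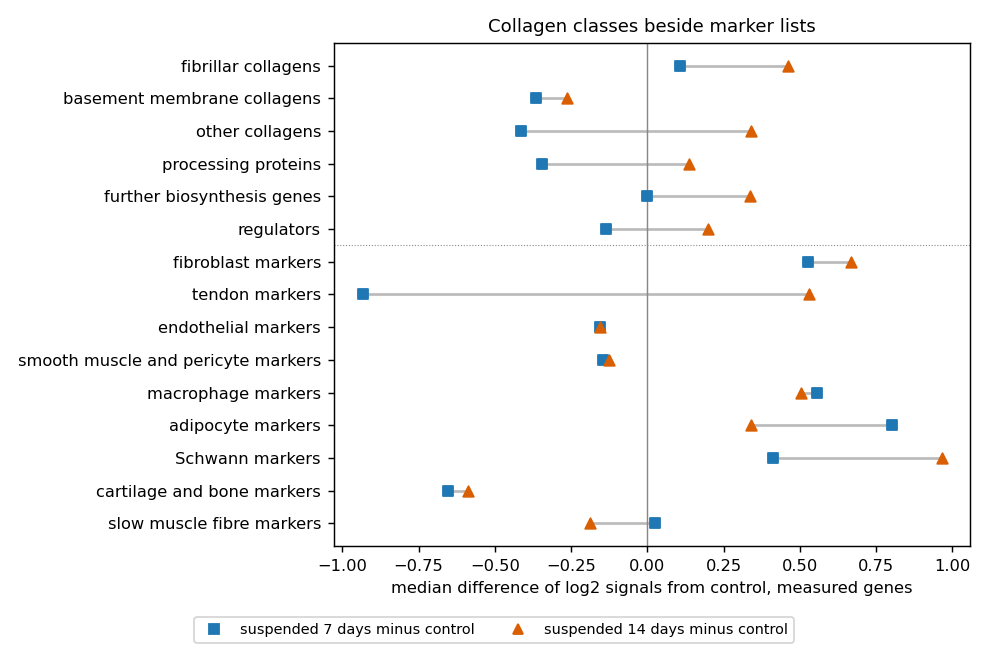
Median difference of log2 signals from control at 7 days (squares) and 14 days (triangles) for the collagen classes, the further pathway lists and the marker lists, over measured genes. Tendon markers lie at -0.93 and 0.53, fibroblast markers at 0.53 and 0.67, and the basement membrane chains below 0 on both days.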

How the data were processed

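Biotin-labelled cRNA from soleus, a mixture of 4 samples per group per the series description, was hybridised to 1 Affymetrix array per group. The deposited values are log2 signals per probe set. Unlogged, each array's 2% trimmed mean was 500.2, which points to a common scaling before deposit, but the sources used here do not give the program or its settings. No further normalization was applied. Differences of log2 signals were taken, and 1 array per group allowed no test.

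Of 31099 probe sets, 57 controls were left out, 20826 had 1 gene, 436 several and 9780 none. All 50 symbols matched current RefSeq symbols. Technical SDs came from 2293 pairs of probe sets. Promoters are RefSeq's, GRCr8. Fibrillar chains are types 1, 2, 3, 5, 11, 24 and 27, basement membrane chains types 4, 15 and 18. All measured genes of the set are named. Of the pathway lists P4ha3 and up to 4 genes per day with the largest differences are named. Genes, lists and motifs were chosen with earlier results of these data known. Calculations used Python 3.11.15, numpy 2.4.6 and pandas 2.3.3 and were tested on simulated data. Scaling, floor, probe set, class and fold were varied.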

Additional observations from a re-analysis of the deposited data

Results flagged for a closer look

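Col11a2 stood on opposite sides of control on the suspended arrays, each by at least 1.5-fold, with a log2 difference of -0.83 at 7 days and 1.54 at 14 days. The difference was not tested, since each day has 1 array and both share the control. Col11a2 has 1 probe set on the array, with a control signal of 7.27 and a technical SD of 0.49 at 7 days. With a floor at the 50th or the 60th percentile the 7-day difference did not reach 1.5-fold, whereas the 14-day difference did. Groups of 1 array allow no search for outlying samples.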

How the results depend on the processing

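No paired analysis was possible because each group has 1 array. The 12 class medians kept their sign in 90 recalculations, which included 1 alternative added after seeing the data, only members that reach the floor on all 3 arrays. The fibrillar median at 14 days ranged from 0.38 to 0.47 and the basement membrane median from -0.34 to -0.25. The median of the other chains ranged from 0.18 to 0.64 and that of the processing genes from 0.032 to 0.18. Counts of genes past the fold moved by over 1.5 times as follows. With no floor, 7 were higher and 16 lower at 7 days, 6 were lower at 14 days, and 3 were lower between the suspended arrays. With a floor at the 60th percentile 1 was higher at 7 days and 0 were lower between the suspended arrays, and 0 were lower there with a floor at the 50th percentile and among members that reach it on all 3 arrays. At 2-fold, 1 was higher and 4 lower at 7 days, 5 higher and 0 lower at 14 days, and 7 higher between the suspended arrays. For single genes the direction turned with the probe set: Col2a1 gave -0.0901 at 7 days as the mean of its probe sets, -0.61 and -0.29 in further probe sets at 7 days, and -0.49 and -0.20 in a further one at 14 days against control and against 7 days. Col6a2 and Col12a1 gave -0.34 and -0.38 between the suspended arrays in a further probe set, that of Col12a1 under the floor. Differences under 1.5-fold turned as well: at 14 days Serpinh1 gave -0.26 as the mean of its probe sets and -0.66 in the further one, Col12a1 -0.29 and -2.33, and Col11a1 -0.36 in a further one. Col6a2 gave 0.16 and 0.69 at 7 days, Col5a2 -0.041 and -0.16, and Col15a1 0.078 and 0.27 between the suspended arrays. With quantile normalization Col1a2 gave -0.032 at 7 days, and Col13a1 and Plod3 0.062 and -0.015 at 14 days. The cause was not tested. Signals under the floor limit Col7a1, Col9a2, Col10a1, Col13a1, Col26a1 and Col27a1 to bounds in at least 1 comparison. Signals near the top limit Col1a2 and Col3a1.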
